A study of Mus musculus with 4 samples.

Results

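The genes described here are 6 that encode secreted matrix or matrix-bound proteins, Fn1, Spp1, Thbs1, Tgfbi, Vcan and Ecm1, of 31053 genes listed in the count matrices. They were picked by name with earlier results of these libraries known, and all 6 symbols were found. The values that chose them were their UMIs (transcript molecules counted once each) in monocytes, macrophages, neutrophils, epithelial cells and fibroblasts, with AT38 and with vehicle. Levels in those cells and their differences with AT38 are therefore given as a description. Where the fit over all genes called a member in those cells, the number called is stated beside the share of all genes called, and nothing is read from it.

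The samples were 4 single-cell RNA sequencing libraries of cells enriched for CD45, the marker of leukocytes, by cell sorting from pancreatic tumours of C57BL/6 mice. All tumours were orthotopic, that is grown in the pancreas from the B6KPC3 line, and were 7 days old when treatment began. The vehicle group (2 libraries) received 1% carboxymethyl cellulose in water and the AT38 group (2 libraries) received AT38, whose structure the sources used here do not give, at 30 mg/kg per day in that vehicle, in both groups as paired daily intraperitoneal injections for 7 days. Each library pooled 4 mice, with 10000 cells loaded and 4000 targeted. Sex and age of the mice are not given in the sources used here. A pool is the replicate, so p-values measure only the spread between pooled libraries. Tumours seeded from 1 line, and cells that passed a leukocyte sort, limit what the libraries can say of other tumours and of tumour or stromal cells.

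The extracellular matrix is laid down mainly by fibroblasts and epithelial cells, and macrophages and monocytes add soluble and matricellular proteins to it, which signal to cells through integrins and other receptors more than they bear load. Fibronectin (Fn1) forms fibrils that cells grip through integrins, and TGF beta induced protein (Tgfbi) links collagens to integrins. Osteopontin (Spp1) and thrombospondin 1 (Thbs1) are matricellular proteins: the first binds integrins and CD44, and the second binds CD36 and CD47 and can activate latent TGF beta. Versican (Vcan) is a large proteoglycan that binds hyaluronan, and extracellular matrix protein 1 (Ecm1) is a secreted glycoprotein that binds matrix proteins. In pancreatic tumours, which are rich in stroma, macrophages with high SPP1 are a known population.

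The libraries held 24294215 to 34386076 UMIs. After filtering, 14242 of 18001 barcodes were kept, 2909 to 4723 per library, with median UMIs per cell from 3005 to 4154. Between any pair of libraries 0 to 8 cell barcodes were shared. Clusters were named from marker genes, with the 6 genes left out of the clustering. This gave 2097 mononuclear phagocytes (1537 macrophage-like and 560 monocyte-like cells), 4470 neutrophils, 1518 dendritic cells, 4175 T, NK and innate lymphoid cells, 1227 B cells, 220 epithelial cells and 41 fibroblasts. Epithelial cells held the keratin gene Krt8 at 1079 to 1806 CPM (UMIs scaled to a class total of 1000000 per library), against 1.32 to 6.62 in macrophage-like cells. Fibroblasts held 6 to 15 cells per library and are given as values without comparison between groups.

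The UMIs of the 6 genes did not come from phagocytes alone. Mononuclear phagocytes made up 14.7% of the kept cells and held 73.4% of the Tgfbi UMIs, 72.1% of the Vcan UMIs and 62.4% of the Fn1 UMIs. They held 43.4% of the Thbs1 UMIs, and neutrophils, which are phagocytes of the granulocyte line, held 47.7%. Only 14.8% of the Spp1 UMIs and 22.2% of the Ecm1 UMIs lay in mononuclear phagocytes. Epithelial cells, 1.54% of the kept cells, held 78.7% of the Spp1 UMIs, 62.2% of the Ecm1 UMIs and 26.0% of the Fn1 UMIs. Fibroblasts, 0.288% of the kept cells, held 6.74% of the Vcan, 6.05% of the Fn1 and 3.74% of the Ecm1 UMIs. By where most UMIs lay, Tgfbi, Vcan, Fn1 and Thbs1 (with neutrophils counted in) were matrix genes of phagocytes in these libraries, and Spp1 and Ecm1 were not. The sort for CD45 can set these shares, since it selects against epithelial cells and fibroblasts.

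**Figure D1:**
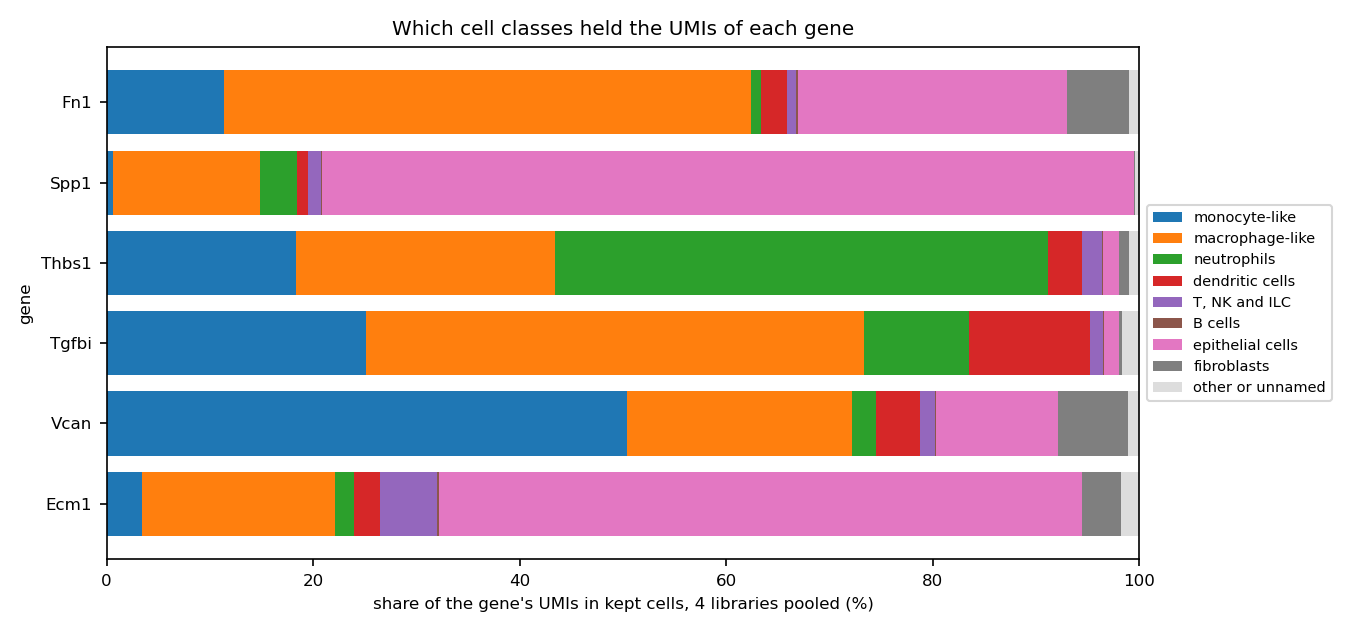
Share of each gene's UMIs (percent, over the kept cells of the 4 libraries) that lay in each cell class. Mononuclear phagocytes hold most Tgfbi, Vcan and Fn1 UMIs, neutrophils and phagocytes share Thbs1, and epithelial cells hold 78.7% of Spp1 and 62.2% of Ecm1.

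The upstream DNA of Spp1 and Ecm1 is shown because these genes stood apart from the other 4 in being mostly epithelial. RefSeq windows (GRCm38.p6) of 250 bases before a start site were found for 4 of the 6 genes, Spp1 with a window for each of 2 starts; Fn1 and Thbs1 are named only. Letters are 5′ to 3′ on the gene's strand, and capitals mark a match to 1 of 5 motifs, searched on both strands: TGACTCA (the AP-1 site), TATAAA (the TATA box), CACGTG (the E-box), ACGTG (the core of the hypoxia response element, which lies within CACGTG) and AGGAAGT (a PU.1 site, PU.1 being the master factor of myeloid cells). The Spp1 window is chr5:104434861-104435110 on the plus strand and the Ecm1 window chr3:95739570-95739819 on the minus strand.
Spp1: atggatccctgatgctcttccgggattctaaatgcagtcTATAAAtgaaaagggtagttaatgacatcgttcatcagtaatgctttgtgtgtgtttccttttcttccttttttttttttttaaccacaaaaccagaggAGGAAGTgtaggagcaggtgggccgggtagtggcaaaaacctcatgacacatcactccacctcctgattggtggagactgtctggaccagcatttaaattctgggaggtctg
Ecm1: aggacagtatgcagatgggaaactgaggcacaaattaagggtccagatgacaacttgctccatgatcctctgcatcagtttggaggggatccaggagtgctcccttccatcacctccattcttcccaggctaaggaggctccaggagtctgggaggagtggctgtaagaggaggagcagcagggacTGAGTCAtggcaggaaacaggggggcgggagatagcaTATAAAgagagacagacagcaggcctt

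The Spp1 window held TATAAA and AGGAAGT, with first bases 211 and 112 bases before the start. The Ecm1 window held TGACTCA on the opposite strand (read as TGAGTCA in the line above) 64 bases before the start, and TATAAA 27 bases before it. Of 32851 such windows of all genes, 12.4% held TATAAA, 7.69% held AGGAAGT, 4.46% held TGACTCA, 6.02% held CACGTG and 16.6% held ACGTG. The windows of Tgfbi, Vcan and the second Spp1 start held none of the 5. A match is a run of letters, not a binding site.

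Fn1 was high in each matrix-making class and in phagocytes. In macrophage-like cells it stood at 1745 and 1987 CPM with vehicle and 740.3 and 403 CPM with AT38, and both AT38 libraries lay below both vehicle libraries. In monocyte-like cells it stood at 1704 and 1096 CPM with vehicle and 714 and 1073 CPM with AT38; AT38 was again lower, but vehicle 2 and AT38 2 nearly met. Epithelial cells held Fn1 at 1760.1 and 1985 CPM with vehicle and 748 and 743 CPM with AT38. These groups did not overlap either, although 28.4% of the epithelial Fn1 UMIs lay in 5 cells. Fibroblasts held 3092, 2948, 2110.1 and 4928 CPM in the vehicle and then the AT38 libraries, the highest of the classes in each of the 4. With vehicle, fibroblasts were followed by epithelial and macrophage-like cells, whose ranges overlapped, and then by monocyte-like cells, while with AT38 the means ran from monocyte-like over epithelial to macrophage-like cells. There the monocyte-like range took in the epithelial values and overlapped that of macrophage-like cells, and in AT38 1 macrophage-like cells were the higher of the 2. Neutrophils held only 39.5 and 42.7 CPM with vehicle and 19.7 and 12.9 CPM with AT38.

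Tgfbi was the member with the highest share of its UMIs in mononuclear phagocytes and the one whose level in that class was closest between groups. In monocyte-like cells it stood at 1426 and 1478 CPM with vehicle and 1364 and 1412 CPM with AT38, so the AT38 libraries lay just below the vehicle libraries. In macrophage-like cells it stood at 716 and 877 CPM with vehicle and 659 and 727 CPM with AT38, and the groups overlapped. Neutrophils held 216.5 and 265 CPM with vehicle and 156 and 175 CPM with AT38, without overlap. In both groups the order was monocyte-like, macrophage-like and neutrophils, with no overlap between these classes. Dendritic cells came next, and with vehicle their range overlapped that of fibroblasts, which overlapped those of mast cells or basophils and of epithelial cells. With AT38 dendritic cells, epithelial cells, fibroblasts and mast cells or basophils followed in that order without overlap.

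Spp1 was above all an epithelial transcript. Epithelial cells held 8867 and 9077 CPM with vehicle and 5037 and 13512 CPM with AT38, so the AT38 libraries lay on either side of the vehicle libraries. Of the epithelial Spp1 UMIs 31.1% lay in 5 cells, and 1 cell held 10257. Macrophage-like cells came next, at 836 and 1143 CPM with vehicle and 527 and 339.6 CPM with AT38, without overlap. Neutrophils held 284 and 249 CPM with vehicle and 302 and 226 CPM with AT38, and monocyte-like cells 135, 92.1, 101 and 189 CPM in the same order of libraries. In neither class were the groups apart. Among neutrophils, the cluster led by the heat shock genes Hspa1b and Hspa1a had the highest Spp1, at 709 and 743 CPM with vehicle and 1742 and 604 CPM with AT38, where 1 AT38 library was high and the other below vehicle.

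Thbs1 was highest in monocyte-like cells and neutrophils. Monocyte-like cells held 2747 and 2581 CPM with vehicle and 1698 and 2045 CPM with AT38, without overlap. Neutrophils held 2493 and 2302 CPM with vehicle and 2199 and 1454 CPM with AT38; both AT38 libraries were lower, AT38 1 by little. The 2 classes did not overlap with vehicle and did with AT38. Among neutrophils the cluster with Cd177, S100a8 and Lcn2 among its leading genes, which encode abundant neutrophil proteins, held the most Thbs1, at 7074 and 5422 CPM with vehicle and 4247 and 3270.1 CPM with AT38, and both AT38 libraries were lower there too. Macrophage-like cells held 1098 and 1049.7 CPM with vehicle and 579.8 and 514 CPM with AT38, the groups well apart. Epithelial cells held only 108, 135, 103 and 85.3 CPM.

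Vcan marked monocytes. Monocyte-like cells, 3.93% of the kept cells, held 50.4% of its UMIs, at 415 and 414 CPM with vehicle and 368 and 378 CPM with AT38, close values that did not overlap. Macrophage-like cells held 69.0 and 66.0 CPM with vehicle and 25.2 and 8.34 CPM with AT38, without overlap. Fibroblasts held 213, 303, 111 and 596 CPM over the libraries in that order, a range that overlapped monocyte-like cells with AT38. Neutrophils were near the floor of the method, at 3.59, 5.73, 9.04 and 9.78 CPM.

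Ecm1 was highest in epithelial cells, at 812 and 592 CPM with vehicle and 357 and 784 CPM with AT38, and the groups overlapped. Fibroblasts held 477, 314, 356 and 335 CPM, in the order vehicle 1, vehicle 2, AT38 1 and AT38 2. Macrophage-like cells held 118 and 134 CPM with vehicle and 52.3 and 47.8 CPM with AT38. Both AT38 libraries were lower. Monocyte-like cells held 94.3 and 76.6 CPM with vehicle and 31.3 and 51.4 CPM with AT38, again without overlap. A class of 115 mast cells or basophils held Ecm1 at 137, 111, 57.7 and 81.5 CPM. Its range overlapped that of macrophage-like cells with vehicle and lay above it with AT38.

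**Figure D2:**
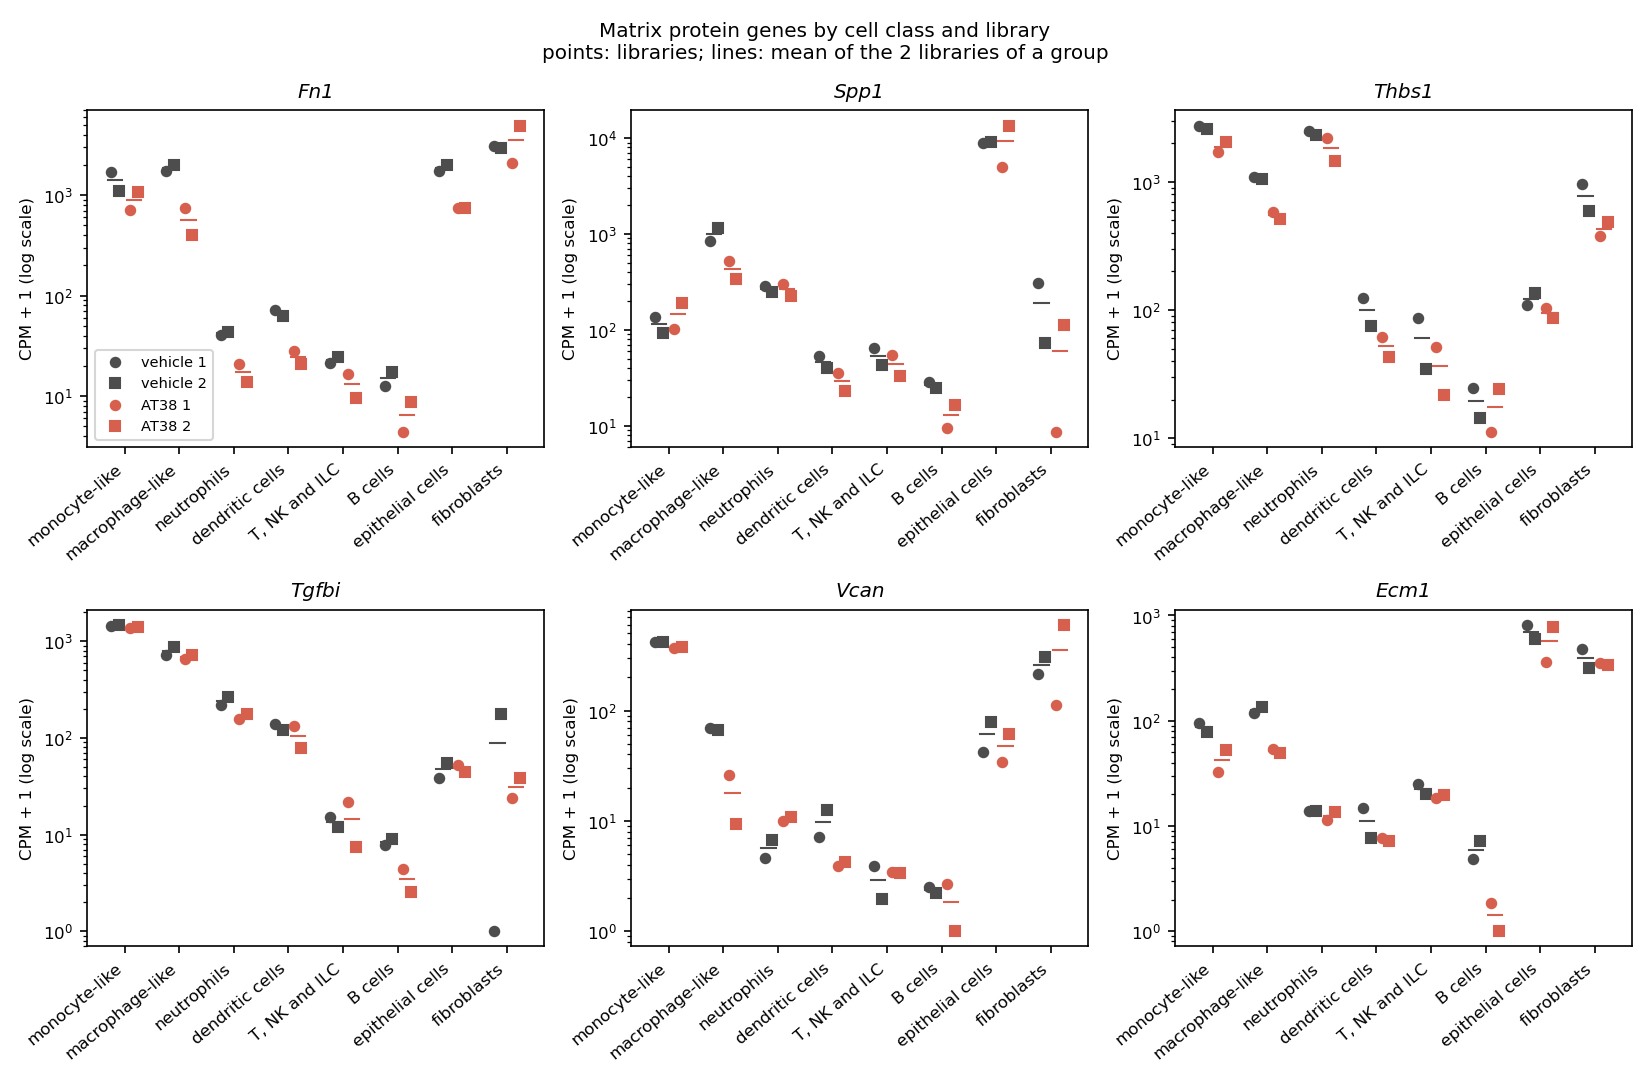
Level of each gene (CPM, log axis) in each cell class, with 1 point per library and vehicle and AT38 in separate colours. With vehicle, monocyte-like cells lead Thbs1, Tgfbi and Vcan, epithelial cells lead Spp1 and Ecm1, and fibroblasts, with 6 to 15 cells per library, lead Fn1.

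Within mononuclear phagocytes the genes differed in the state where their level was highest. Cells were split by UMIs of complement C1q, made by macrophages, of Arg1, which encodes arginase 1, and of Mrc1 or Folr2, markers of resident-like macrophages. This gave 674 cells with no C1q UMI, 660 C1q cells with Arg1, 495 C1q cells without Arg1 and with Mrc1 or Folr2, and 268 C1q cells with none of these. A UMI is easier to see in a deep cell: the 4 states held 6105, 13315, 9356 and 5992 UMIs per cell on average, and the part of this difference in the values was not tested. Levels as CPM over a state's summed UMIs do not rise with depth by construction, but the choice of cells does.

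The means of Fn1 and Spp1 were highest in the Arg1 state, though not in every library. Fn1 stood there at 2011 and 2263 CPM with vehicle and 1328 and 933 CPM with AT38, against 466 and 643 CPM with vehicle and 199.9 and 138 CPM with AT38 in the Mrc1 or Folr2 state. In both states the AT38 libraries were lower. Cells without C1q held Fn1 at 2021 and 1797 CPM with vehicle and 749.6 and 955 CPM with AT38, so they were a little above the Arg1 state in vehicle 1 and AT38 2 and below it in the other libraries. Spp1 stood at 1068 and 1190.3 CPM with vehicle and 915 and 437 CPM with AT38 in the Arg1 state. In cells without C1q it stood at 395 and 929 CPM with vehicle and 264 and 490 CPM with AT38, which overlapped, and was above the Arg1 state in AT38 2. In the Mrc1 or Folr2 state Spp1 averaged 278 ± 21.7 CPM with vehicle and 123 ± 44.4 CPM with AT38 (SD, n = 2). AT38 was lower in the Arg1 and in the Mrc1 or Folr2 state, without overlap.

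Thbs1, Tgfbi and Vcan were highest in cells without C1q. Thbs1 averaged 2468 ± 551 CPM with vehicle and 1760.1 ± 295 CPM with AT38 in them, and 1165 ± 15.6 and 673 ± 191 CPM in the Arg1 state (SD, n = 2). Tgfbi averaged 1204 ± 171 and 1138 ± 156 CPM without C1q and 872 ± 142 and 911 ± 32.2 CPM in the Arg1 state, and the groups overlapped in both (SD, n = 2). Vcan without C1q stood at 287 and 339.7 CPM with vehicle and 297 and 342 CPM with AT38, overlapping values. In the Arg1 state Vcan averaged 71.2 ± 23.95 CPM with vehicle and 32.0 ± 9.99 CPM with AT38 (SD, n = 2). Ecm1 was highest in the Arg1 state, at 144 ± 13.5 CPM with vehicle and 79.0 ± 1.11 CPM with AT38, and lower with AT38 in each of the 4 states (SD, n = 2).

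The Arg1 state itself held 160, 284, 131 and 85 cells in vehicle 1, vehicle 2, AT38 1 and AT38 2, and the Mrc1 or Folr2 state 71, 146, 175 and 103. Arg1 stood at 1895 and 1696 CPM with vehicle and 906 and 542 CPM with AT38 in macrophage-like cells. The mix of states thus moved with treatment beside the member levels. Fn1 and Ecm1 were lower with AT38 within each state. The states were cut by Arg1 UMIs, which were themselves fewer with AT38, so a state can hold different cells in the vehicle and AT38 groups. The part of the mix in the member values was not tested.

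**Figure D3:**
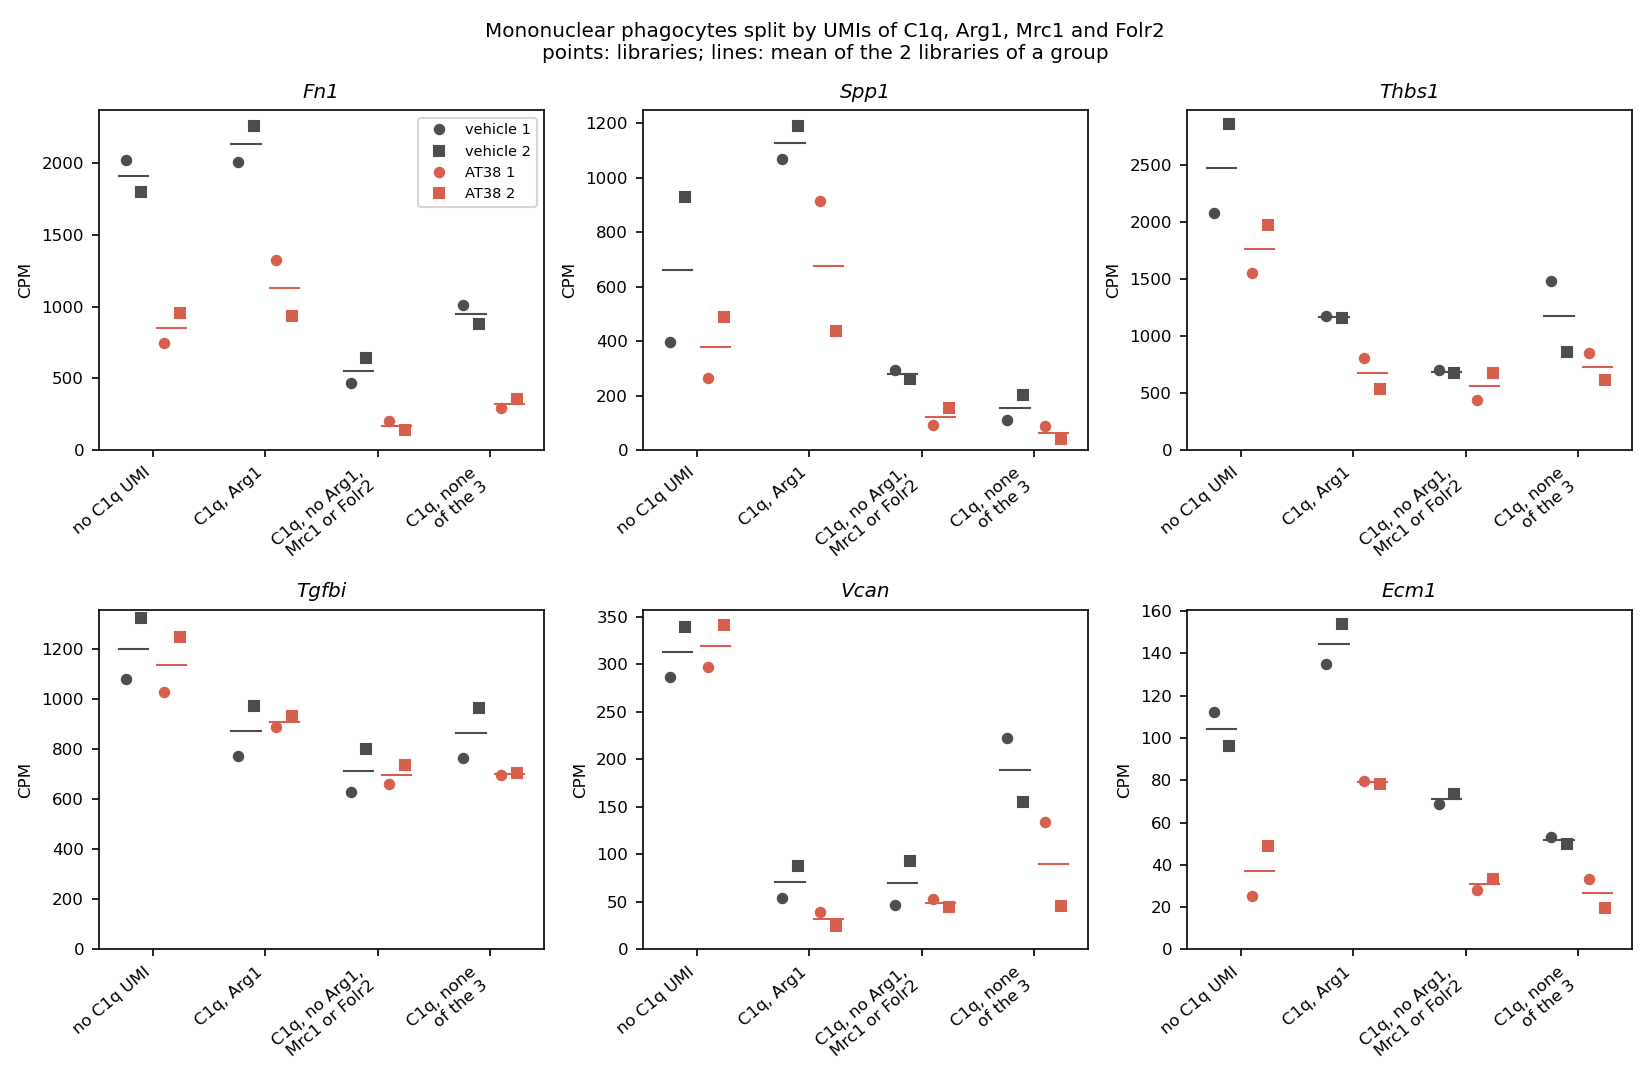
Level of each gene (CPM, linear axis) in 4 states of mononuclear phagocytes split by UMIs of C1q, Arg1 and Mrc1 or Folr2, with 1 point per library. Fn1 and Ecm1 are lower with AT38 in every state, while Tgfbi overlaps between groups in the state without C1q and in the Arg1 state.

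The macrophage-like cells formed 3 clusters. Cluster 2 (777 cells, led by Ccl24, Arg1, Mmp13 and Mmp12) held Fn1 at 1963 and 2040 CPM with vehicle and 735 and 457 CPM with AT38. Cluster 1 (333 cells, led by Ccl8, Folr2 and Lyve1, genes of tissue-resident macrophages) held it at 1285 and 2177 CPM with vehicle and 889 and 287 CPM with AT38, a wider spread in both groups. Cluster 5 (427 cells, led by Ear2, Ctsk and Apoe) had a median UMI count 0.299 times that of all kept cells and held Fn1 at 265 and 433 CPM with vehicle and 122 and 148 CPM with AT38. In all 3 clusters the AT38 libraries lay below the vehicle libraries. Spp1 in cluster 1 was uneven between libraries, at 252 and 1085 CPM with vehicle and 101 and 474 CPM with AT38, which overlapped. Ecm1 in cluster 2 was even, at 127 and 129.5 CPM with vehicle and 45.5 and 46.0 CPM with AT38.

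In mononuclear phagocytes 5 of the 6 genes were lower in both AT38 libraries, and Tgfbi was the exception. Fn1 stood at 1738 and 1787 CPM with vehicle and 734 and 576 CPM with AT38. As means these are 1763 ± 34.8 and 655 ± 112 CPM (SD, n = 2), and the edgeR fit over all genes of the class gave a log2 fold change of −1.42 ± 0.10 (SE). Ecm1 went from 118 ± 4.84 to 48.2 ± 0.797 CPM (−1.29 ± 0.11), Spp1 from 813 ± 134 to 366 ± 92.4 CPM (−1.14 ± 0.18) and Thbs1 from 1384 ± 12.4 to 871 ± 56.5 CPM (−0.66 ± 0.09). Vcan went from 136 ± 11.9 to 103 ± 1.36 CPM (−0.39 ± 0.11). In these 5 genes no AT38 library reached a vehicle library. The share of all genes tested whose groups lay apart in this way was not counted, so nothing is read from the 5. Tgfbi stood at 924 ± 125 and 861 ± 61.7 CPM (−0.09 ± 0.11), and its groups overlapped. The median over the 6 genes was −0.90, beside 0.0020 over all 10844 genes tested. The choice of the genes with this contrast known can set that median, so nothing is read from it either.

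Of the 6, 3 (Fn1, Thbs1 and Ecm1) passed an adjusted p of 0.05 in the edgeR quasi-likelihood test in the lower direction, beside a background of 0.489% of the genes tested that were called lower and 1.27% called in either direction. The genes were picked with this contrast in view, so the count is no evidence about them.

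In macrophage-like cells the log2 fold changes were −1.89 ± 0.37 for Vcan, −1.70 ± 0.31 for Fn1, −1.32 ± 0.14 for Ecm1, −1.18 ± 0.25 for Spp1, −0.97 ± 0.10 for Thbs1 and −0.19 ± 0.12 for Tgfbi (SE). The 2 called, Thbs1 and Ecm1, stand beside 0.443% of genes called lower in that class and 1.08% in either direction. Thbs1 was not called without vehicle 1 or vehicle 2 (−0.95 and −0.99), nor Ecm1 without vehicle 2 (−1.22). The size for Vcan rested on single libraries and on the clustering: it was −2.98 without AT38 1, −1.44 without AT38 2 and −0.40 at Leiden resolution 0.5, where monocytes have no class of their own. Fn1 was −2.18 without AT38 1 and −1.36 without AT38 2, and each of these genes was called in 6 of 12 alternatives. In monocyte-like cells the values were smaller: Ecm1 was at −1.06 ± 0.24, Fn1 at −0.65 ± 0.42, Thbs1 at −0.51 ± 0.10, Vcan at −0.16 ± 0.13, Tgfbi at −0.07 ± 0.10 and Spp1 at 0.36 ± 0.38. Thbs1 was the 1 called, beside 0.195% called lower and 0.362% in either direction. It was called in 6 of 12 alternatives and not without vehicle 2 or AT38 1 (−0.58 and −0.37). Whether the effect on Vcan or Spp1 differed between macrophage-like and monocyte-like cells was not tested.

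In neutrophils Fn1 was at −1.45 ± 0.21 and Tgfbi at −0.67 ± 0.11 (SE), the 2 members called there, beside 3.78% of genes called lower and 5.53% in either direction. Within neutrophils the summed monocyte markers, 0 of 8 at 0, stood at 1387 to 1607 CPM with vehicle and 1153 to 1288 CPM with AT38. Fibroblast markers, with Pdgfra and Pdgfrb at 0, stood at 6.46 to 12.5 and 4.11 to 4.89 CPM, and macrophage markers, 0 of 12 at 0, at 428 to 573 and 411 to 650 CPM. Their part in the neutrophil values was not tested. Thbs1 was at −0.51 ± 0.26, Ecm1 at −0.30 ± 0.27, Spp1 at −0.13 ± 0.12 and Vcan at 0.85 ± 0.37, none of them called. In epithelial cells Fn1 was at −1.22 ± 0.23 and the other 5 lay between −0.25 and 0.17, with 0 members called in edgeR beside 0.0% called lower and 0.0199% called in either direction (1 member and 555 of 10052 genes had an unadjusted p under 0.05, and DESeq2 called 1 member). The epithelial values rest on 35 to 75 cells per library.

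**Figure D4:**
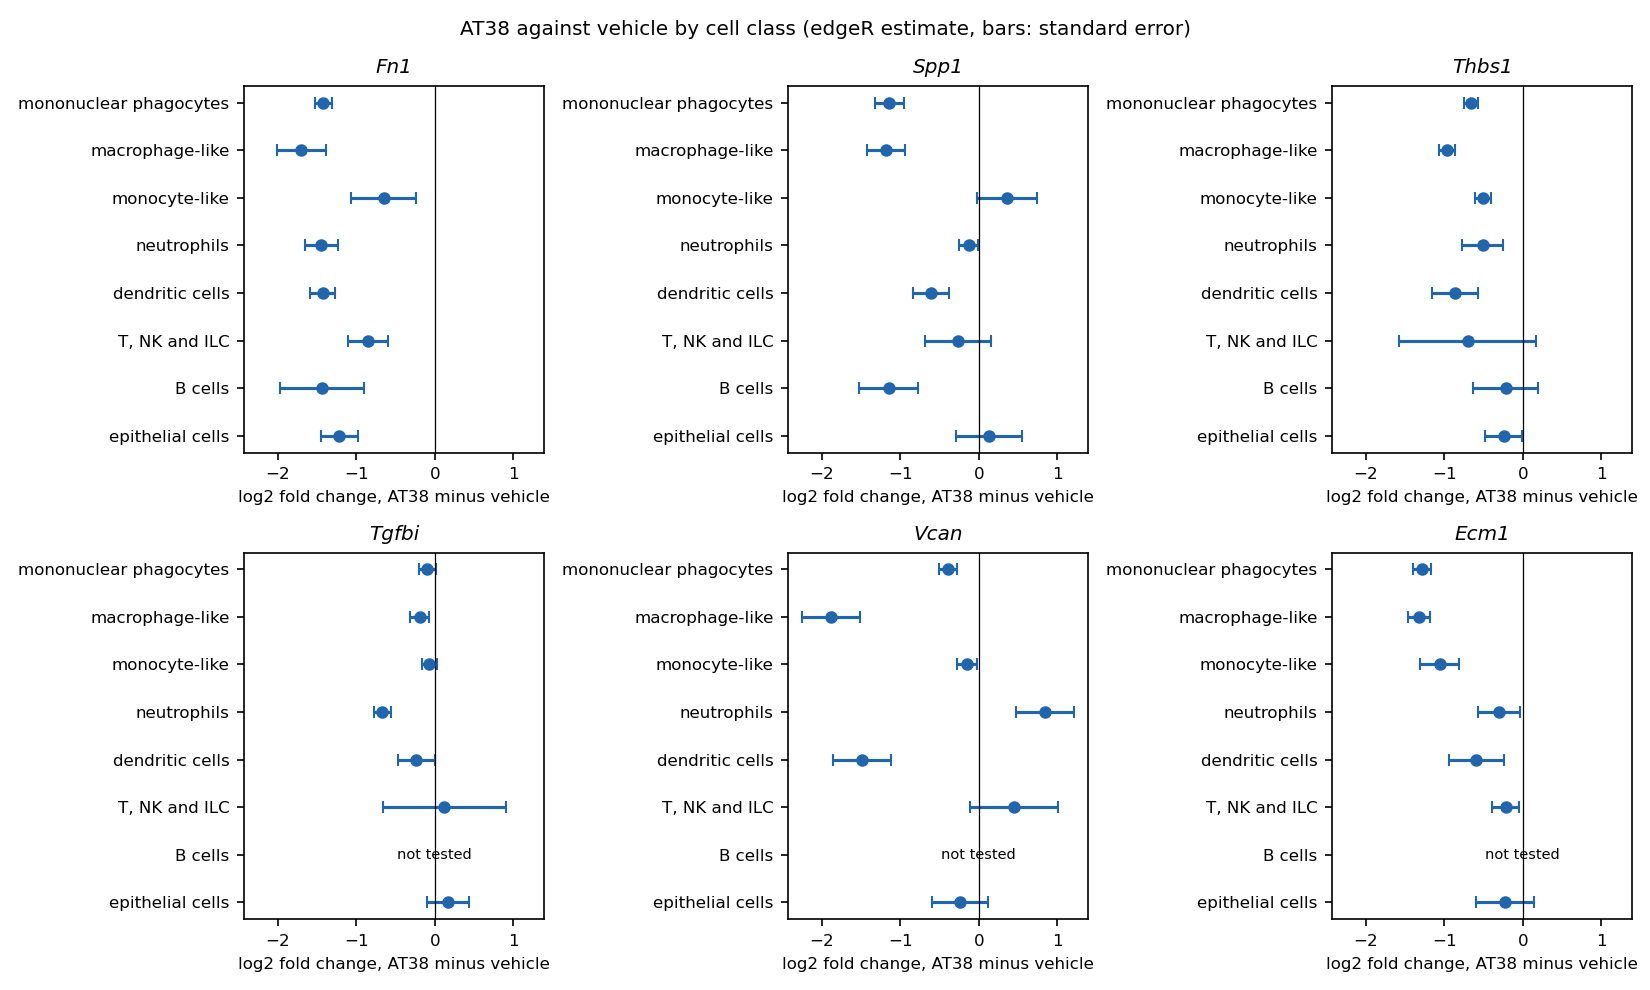
Log2 fold change with AT38 (AT38 minus vehicle, from the edgeR fit of each class) of each gene in each class, with bars of 1 standard error. Fn1 lies below 0 in every class drawn, and Tgfbi lies near 0 in mononuclear phagocytes.

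Markers of other cells moved in part with these values. In mononuclear phagocytes the summed level of 8 epithelial markers, 0 of them at 0, was 63.6 to 66.1 CPM with vehicle and 38.8 to 47.8 CPM with AT38. The summed platelet markers, of which Gp9 and Gp1bb were at 0, stood at 7.35 to 7.90 CPM with vehicle and 1.30 to 1.37 CPM with AT38; platelets are rich in Thbs1 protein and can carry its RNA. Fibroblast markers, with Pdgfra at 0, were at 4.59 to 4.86 and 4.29 to 5.20 CPM, and neutrophil markers at 2882 to 2995 and 2627 to 2948 CPM. Fn1 stood at 576 to 1787 CPM in this class. The part of any of these markers in the member values was not tested.

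The share of cells with a UMI moved the same way once each cell was thinned to 1000 UMIs. Among macrophage-like cells (1324 used, 213 shallower ones left out) Fn1 was seen in 44.0% (95% exact binomial interval 38.3 to 49.9%) and 53.5% (48.9 to 58.2%) with vehicle and in 24.5% (20.1 to 29.4%) and 20.1% (14.99 to 26.0%) with AT38. These intervals cover counting error only, and the AT38 intervals lay below the vehicle intervals. Among cells with Fn1, the mean was 3.88 and 3.81 UMIs with vehicle and 2.87 and 1.93 UMIs with AT38, so for Fn1 both the share of cells and the UMIs per positive cell were lower.

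Spp1 was seen in 29.8% ± 0.687 (vehicle) and 12.0% ± 1.42 (AT38) of thinned macrophage-like cells, Thbs1 in 37.3% ± 6.57 and 24.3% ± 5.24, and Tgfbi in 44.3% ± 3.71 and 37.5% ± 2.50 (SD, n = 2). Ecm1 was seen in 9.10% ± 0.810 and 3.39% ± 0.916, and Vcan in 5.25% ± 0.182 and 1.75% ± 1.19. Without thinning the shares were 64.3% and 37.2% for Fn1, 54.8% and 34.8% for Spp1, 61.0% and 43.4% for Thbs1, 72.9% and 66.8% for Tgfbi, 41.1% and 23.8% for Ecm1 and 20.1% and 6.50% for Vcan. The mean of each gene was lower with AT38 in both. The UMIs per cell with Spp1 did not follow its share: after thinning they were 2.76 and 3.73 with vehicle and 2.64 and 5.42 with AT38, which overlapped, the last from 24 cells. Unthinned they were 16.6 and 19.8 with vehicle and 16.0 and 7.98 with AT38.

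After thinning, Thbs1 was seen in 69.0% ± 4.28 of monocyte-like cells in the vehicle group and 60.6% ± 0.492 in the AT38 group, and Fn1 in 54.9% ± 4.45 and 38.3% ± 0.259 (SD, n = 2). Unthinned, these were 85.2% and 77.4% for Thbs1 and 80.3% and 68.3% for Fn1. Among neutrophils Thbs1 was seen in 50.3% ± 3.36 and 44.9% ± 7.12, which overlapped, and in 58.0% and 52.6% unthinned. Tgfbi in neutrophils was seen in 21.5% ± 1.58 and 14.7% ± 0.697, and in 34.8% and 25.9% unthinned. B cells, which should lack these genes, were taken as a guide to free RNA. After thinning, Thbs1 was seen in 2.00% and 1.65% of them, Fn1 in 0.758% and 0.866%, and Spp1 in 2.55% and 0.726%. Tgfbi was seen in 0.600% and 0.391%, and Ecm1 in 0.266% and 0. In T, NK and innate lymphoid cells each of these shares was higher. Thbs1 was seen in 3.88% and 1.69% of them, Fn1 in 2.46% and 1.27%, and Spp1 in 4.75% and 2.25%. Their Tgfbi shares were 0.821% and 0.881%, and those of Ecm1 2.07% and 2.01%. Which class comes nearer to free RNA was not tested. The median depth before thinning was 3028 UMIs in B cells, 6704 in macrophage-like cells, 7195.5 in monocyte-like cells and 2144.5 in neutrophils. Fn1 in neutrophils, at 3.24% ± 1.05 and 1.25% ± 0.144 thinned (6.43% and 2.67% unthinned), lay above that of B cells with vehicle and close to it with AT38. Beside T, NK and innate lymphoid cells (2.46% ± 0.874 and 1.27% ± 0.0218), it was close in both groups.

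**Figure D5:**
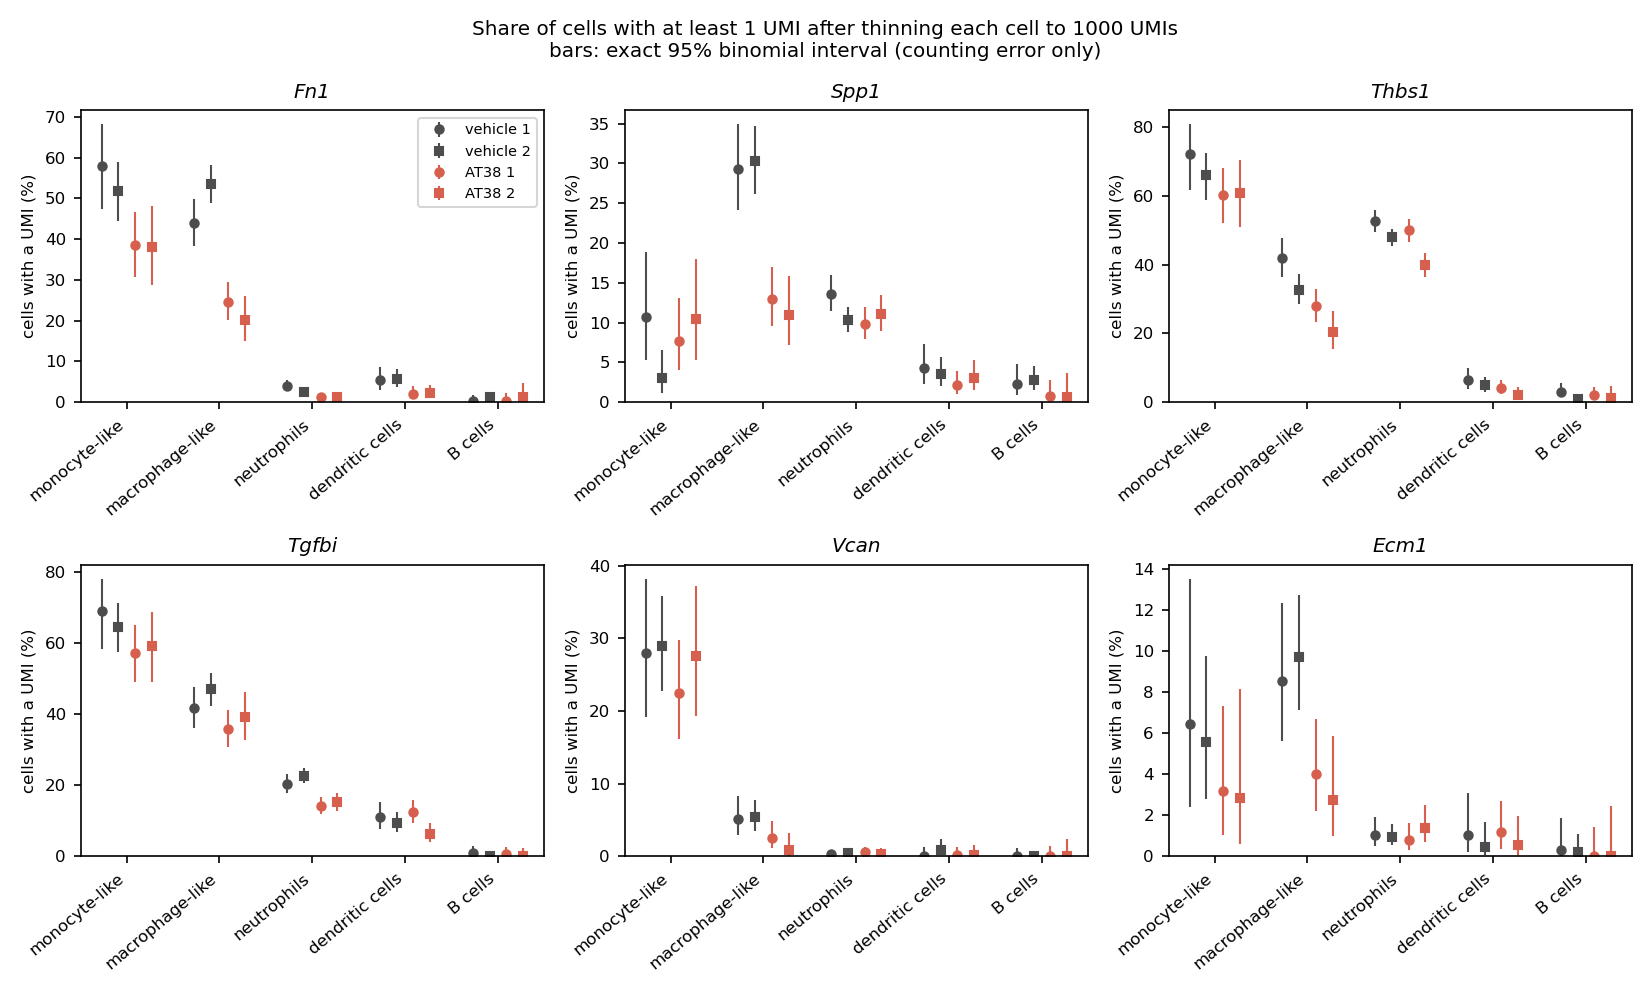
Share of cells (percent) with at least 1 UMI of each gene after thinning every cell to 1000 UMIs, by class, with 1 point per library. In macrophage-like cells Fn1 is seen in 44.0% and 53.5% of cells with vehicle and 24.5% and 20.1% with AT38. B cells are drawn as a guide to free RNA.

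Some pairs of the genes went together in macrophage-like cells. In thinned macrophage-like cells 9 of the 15 pairs of genes were linked in all 4 libraries, that is a cell with a UMI of one held the other more often than a cell without it, and in monocyte-like cells 3 of 15. Of macrophage-like cells with Fn1, 21.2 to 42.2% over the libraries also held Spp1, against 7.43 to 19.5% of those without Fn1. For Thbs1 the shares were 29.5 to 55.0% and 18.3 to 31.7%. Fn1 was less often seen with Ecm1 or Vcan: 2.27 to 14.1% of cells with Fn1 held Ecm1 and 1.18 to 8.53% held Vcan. Without Fn1 these shares were 1.91 to 4.88% and 0.571 to 3.05%. The pairs depended on the depth kept. Thinned to 2000 UMIs, 8 pairs were linked in macrophage-like cells, 5 of them among the 9 (Fn1 with Spp1, Fn1 with Thbs1, Spp1 with Thbs1, and Thbs1 with Tgfbi and with Vcan), and 3 in monocyte-like cells, of which Fn1 with Thbs1 and Thbs1 with Vcan were linked at both depths. Cells of 1 library are not replicates, and pairs of other genes were not counted beside these, so these are descriptions. The macrophage-like class also joined clusters with unlike shares. With vehicle, thinned Fn1 was seen in 57.9% of cluster 2, 39.2% of cluster 1 and 25.3% of cluster 5. The part of this in the links was not tested.

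Dendritic cells, T, NK and innate lymphoid cells, and B cells took no part in the choice of the genes, and the 6 were tested there. In dendritic cells Fn1 stood at 71.5 and 61.3 CPM with vehicle and 27.2 and 19.7 CPM with AT38. Both AT38 libraries were lower, a log2 fold change of −1.43 ± 0.16 (SE, edgeR adjusted p = 0.0380). It was 1 of 3 genes called in that class, all lower, which is 0.027% of the genes tested. The others, named because they are so few, were Clec4d, a lectin gene on the list of neutrophil markers, and Ighm, an immunoglobulin gene of B cells. The call was lost without vehicle 1 (edgeR adjusted p = 0.397) and without vehicle 2 (edgeR adjusted p = 0.0952), and over 12 alternatives the adjusted p ran from 4.12e-19 to 0.397, with 10 calls.

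The dendritic Fn1 lay in 233 of 1518 cells, with 23.5% of its UMIs in 5 cells, and was highest in the cluster led by Cd209a and Clec10a (97.6 and 140.05 CPM with vehicle, 47.5 and 76.7 CPM with AT38). After thinning, the share of dendritic cells with a UMI was 5.46% ± 0.204 in the vehicle and 2.15% ± 0.056 in the AT38 group (SD, n = 2), and 20.7% and 10.7% without thinning. The summed macrophage markers in dendritic cells stood at 331 to 472 CPM with vehicle and 214 to 420 CPM with AT38, and neutrophil markers at 1600 to 1933 and 953 to 1205 CPM. B cells held Fn1 at 11.5, 16.5, 3.40 and 7.70 CPM, lower with AT38 as well. The part of free RNA and of these markers in the dendritic result was not tested.

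The other 5 genes were not called in dendritic cells. Thbs1 stood there at 122, 74.4, 61.1 and 42.1 CPM (−0.86 ± 0.30, edgeR adjusted p = 0.786) and Vcan at 6.12, 11.6, 2.88 and 3.20 CPM (−1.49 ± 0.37, edgeR adjusted p = 0.437), with 44.9% of its UMIs in 5 cells. In both the AT38 libraries lay below the vehicle libraries. In T, NK and innate lymphoid cells 0 of 6 members were called by edgeR, beside 0.0452% of all genes called (1 member and 679 genes had an unadjusted p under 0.05, and DESeq2 gave no adjusted p for the members). Fn1 there stood at 20.3, 23.4, 15.7 and 8.52 CPM (−0.85 ± 0.25, edgeR adjusted p = 0.524). In B cells 3 members passed the filter on low counts and 0 were called, beside 0.142% of all genes (2 members and 613 genes had an unadjusted p under 0.05, and DESeq2 gave no adjusted p for the members). Fn1 was at −1.44 ± 0.53 (edgeR adjusted p = 0.406) and Spp1 at −1.15 ± 0.37 (edgeR adjusted p = 0.302).

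Genes that work with these proteins were looked up in 7 lists, and their values came from the same whole-table fits. The lists were chosen with earlier results of these data known, so the counts called per list are no evidence about the lists. Losses of a call named below are those with a library left out, unless counted over the 12 alternatives. In mononuclear phagocytes the largest of these changes was in the proteases that cut the matrix and their inhibitors, where 1 of 25 tested genes rose, 5 fell and 19 did not pass (median log2 fold change −0.04, beside 0.0020 over all genes, of which 0.784% rose and 0.489% fell). Ctsk, a cathepsin that cuts collagen and elastin, stood at 214 and 172 CPM with vehicle and at 2.93 and 3.25 CPM with AT38. Hardly any of it was left in either AT38 library, and it fell by 5.96 ± 0.20 on the log2 scale (SE, edgeR adjusted p = 4.84e-08), a call kept in all 12 alternatives. The gelatinase Mmp9, which cuts gelatin and basement membrane collagen, fell from 247 and 360.2 to 67.7 and 44.5 CPM, by 2.41 ± 0.27 (edgeR adjusted p = 0.0360). The Mmp9 call was lost in 4 of 12 alternatives, 1 of them the fit without AT38 2. The sheddase Adam10 fell by 0.67 ± 0.11 (edgeR adjusted p = 0.0148; 0.125 without AT38 2).

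Of the remaining proteases, Mmp19 fell by 0.73 ± 0.14 (edgeR adjusted p = 0.0350), while the gelatinase Mmp2 rose by 1.09 ± 0.23 (edgeR adjusted p = 0.0463). Neither call was stable when a library was left out. The Mmp19 call was lost in 3 of 12 alternatives, those without vehicle 1, AT38 1 or AT38 2. That of Mmp2 was lost in 9 of 12, among them the fits without any one of the 4 libraries.

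Of 17 tested receptors of the members 0 rose, 1 fell and 16 did not pass, and 4 had an unadjusted p under 0.05 (median −0.0066). The syndecan Sdc1, a proteoglycan co-receptor, fell from 41.6 and 40.1 to 24.01 and 24.4 CPM, by 0.75 ± 0.14 (edgeR adjusted p = 0.0325), a call lost without any one of the 4 libraries (adjusted p from 0.0713 to 0.176). The osteopontin and hyaluronan receptor Cd44 was at −0.19 ± 0.10 (edgeR adjusted p = 0.619), the thrombospondin receptor Cd36 at −0.85 ± 0.32 (edgeR adjusted p = 0.507) and the scavenging receptor Lrp1 at −0.31 (edgeR adjusted p = 0.378).

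Of 12 tested other matrix and matricellular genes 2 rose, 0 fell and 10 did not pass (median 0.03). Gas6, a ligand of the TAM receptors that bridges dying cells to phagocytes, rose from 37.2 and 42.7 to 87.3 and 66.0 CPM, by 0.95 ± 0.15 (edgeR adjusted p = 0.0108). Its call was lost in 2 of 12 alternatives, 1 of them the fit without AT38 1. Lgals3bp, a secreted partner of galectin 3, rose from 92.5 and 98.7 to 149 and 163 CPM, by 0.71 ± 0.11 (edgeR adjusted p = 0.0120; 0.0544 without vehicle 1 and 0.0972 without AT38 2). In both genes the AT38 libraries lay above the vehicle libraries. Among 18 tested genes of the TGF beta system 0 rose, 1 fell and 17 did not pass (median 0.06): Ltbp3, which holds latent TGF beta in the matrix, fell by 0.96 ± 0.20 (edgeR adjusted p = 0.0491), a call lost without any one of the 4 libraries (0.0515 to 0.302). Tgfb1, the ligand that induces Tgfbi, was at −0.06 (edgeR adjusted p = 0.934). Of 7 hyaluronan genes, 14 cross-linking genes and 1 fibrillar collagen gene tested, 0 were called by edgeR or DESeq2, with 1, 3 and 1 at an unadjusted p under 0.05 (medians 0.17 and −0.06 for the first 2 lists). DESeq2 gave no adjusted p for 2, 2 and 4 genes of these lists.

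In neutrophils 23 proteases and inhibitors were tested, of which 1 rose and 4 fell (median −0.33, beside 0.0071 over all genes). Ctsd, a lysosomal protease, fell by 0.54 ± 0.09 (edgeR adjusted p = 0.000217), and Plaur, the receptor of urokinase, by 0.37 ± 0.08 (edgeR adjusted p = 0.00369). The Plaur call was lost in 2 of 12 alternatives, 1 of them the fit without vehicle 1. Plau, the urokinase gene, rose by 0.47 ± 0.12 (edgeR adjusted p = 0.0191; 0.172 without vehicle 1, 0.0561 without vehicle 2 and 0.316 without AT38 2), beside 1.75% of all genes that rose. The falls of Adam8 and Ctsb were lost without vehicle 1, AT38 1 or AT38 2 (adjusted p = 0.190, 0.0570 and 0.109 for Adam8 and 0.276, 0.106 and 0.0765 for Ctsb). Tnfaip6, a hyaluronan-binding protein made in inflammation, fell by 0.82 ± 0.16 (edgeR adjusted p = 0.00131), and its call held in all 12 alternatives, as did that of Ctsd. Cd44 fell by 0.30 ± 0.08 (edgeR adjusted p = 0.0256; 0.0798 to 0.322 without vehicle 1, vehicle 2 or AT38 1) and the TGF beta family receptor gene Acvrl1 by 1.69 ± 0.39 (edgeR adjusted p = 0.00809; 0.175 without vehicle 2 and 0.113 without AT38 2). No list gene was called by edgeR or DESeq2 in monocyte-like, dendritic, T, NK and innate lymphoid, B or epithelial cells, where 12, 12, 7, 5 and 10 had an unadjusted p under 0.05. In the same order DESeq2 gave no adjusted p for 47, 45, 107, 99 and 52 list genes, which it could therefore not call.

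Last, the genes whose pattern over 9 cell classes was most like that of each member were sought among 5944 genes with a class mean of at least 50 CPM, by Pearson's r of log2(CPM + 1) over the class means. For Fn1 they were Itgb5 (0.988), an integrin subunit that binds vitronectin and other RGD proteins, Fam102b (0.986) and Rin2 (0.965). For Tgfbi they were Csf1r (0.977), the receptor that macrophages need to survive, Lyz2 (0.970), the myeloid lysozyme, and Zeb2os (0.959). Vcan was most like Plod3 (0.967), a collagen-modifying enzyme, Fam102b (0.963) and Gab1 (0.962), and Ecm1 most like Slc25a39 (0.957), Ctdspl (0.953) and Ctnnd1 (0.946). Spp1 had lower values, with Pfdn2 (0.929), Hbegf (0.905) and Gclm (0.904), and Thbs1 was nearest to Rtp4 (0.960), Sod2 (0.946) and Prdx5 (0.945). The points are 9 classes of the same 4 libraries, so these r are descriptions.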

How the data were processed

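The authors deposited a matrix of raw UMI counts for each of the 4 libraries (10x 3′ v3.1 kit, per the labels' protocols), made with Cell Ranger 3.1.0 and mm10, per the submitters' processing notes. The annotation release and the strand setting of the counting are not given in the sources used here. Gene positions come from GENCODE (GRCm38) by gene ID. Other genes overlap Spp1 (Gm42793) and Ecm1 (Mir7014) on the same strand and Fn1, Thbs1 and Vcan on the other, so a share of their reads could belong to those.

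Kept barcodes had 200 or more genes, 500 or more UMIs and no more than 10% mitochondrial UMIs, and scrublet doublet scores removed 0.8% of barcodes per 1000 barcodes of a library, 683 in all. Cells were clustered with scanpy 1.11.5 (2000 variable genes per library without the 6 members, 30 components, 15 neighbours, Leiden resolution 1), which gave 29 clusters. Naming a cluster took 3 or more detected markers (each in 10% of the cells) of that type and 10 leading genes that did not point to another joined class. A cluster led by cycling genes stayed unnamed, and 28 were named. The treatment of haemoglobin genes (dropped from the leading genes) and the joining of T, NK and innate lymphoid cells, where T cells alone had been planned, were decided after the clusters were seen.

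UMIs were summed per library and class where each library held at least 20 cells, and tested with edgeR 4.0.16 (quasi-likelihood, robust, TMM, filterByExpr, two-sided, Benjamini-Hochberg over the genes of the class, threshold 0.05) in R 4.3.3. SE is the log2 fold change over the square root of F. DESeq2 1.42.0, other normalization, filters, clustering, mitochondrial and doublet settings, a replicate block and leaving out each library were alternatives. The fit was tested on simulated counts. CPM is UMIs scaled to a class total of 1000000 per library. Intervals are exact binomial at 95%.

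The members and lists were chosen with earlier results of these data known. Named genes were the members, up to 6 called genes per list and class with the smallest p first and up to 3 not called, and the 3 genes most alike in pattern, and 1 called list gene is not reported here. The neutrophil and dendritic clusters singled out were chosen after their values were seen.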

Additional observations from a re-analysis of the deposited data

Results flagged for a closer look

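The mean Vcan level differed between groups in opposite directions in different classes, though it was called in none of the classes named here. In neutrophils it was higher with AT38 in both libraries, 2.02 times the vehicle mean, while dendritic cells stood at 0.344 times, macrophage-like cells at 0.248 times and monocyte-like cells at 0.899 times, each with both AT38 libraries below both vehicle libraries. The difference between classes was not tested. The neutrophil value rests on 76 UMIs (10, 22, 22 and 22 in vehicle 1, vehicle 2, AT38 1 and AT38 2), of which 43.4% lay in 5 cells and 19 in 1 cell of AT38 2. It was called in 0 of 12 alternatives. The share of neutrophils with a Vcan UMI averaged 1.03% with vehicle and 0.927% with AT38, and 0.413% and 0.472% after thinning to 1000 UMIs.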

How the results depend on the processing

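With 2 libraries per group, a library left out leaves 1 in that group, whose spread is then taken from the other. Genes called in mononuclear phagocytes numbered 138, against 423 with every gene with a UMI, 291 with the replicate block, 219 without doublet removal and 56 to 160 with a library left out. In macrophage-like cells 114 became 411, 418, 205 and 4 to 327 under the same settings. In monocyte-like cells 26 became 84 with every gene, 44 without doublet removal, 11 with DESeq2, 17 with the members among the variable genes and 30 to 70 with a library left out. In neutrophils 465 became 193 with DESeq2 and 224 to 411 with a library left out. In dendritic cells 3 became 163 with every gene, 37 with the block, 19 with DESeq2 and 4 to 564 with a library left out. In T, NK and innate lymphoid cells 5 became 67, 11 and 15 in that order, 1 with the members among the variable genes, 9 up to 20% mitochondrial UMIs, 8 without doublet removal and 7 to 29 with a library left out. In B cells 11 became 69 with every gene, 69 with the block, 29 without TMM, 5 at resolution 0.5, 6 up to 20% mitochondrial UMIs, 4 without doublet removal and 8 to 59 with a library left out. The cause of these moves was not tested, beyond the number of genes or libraries that a setting changes.

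Spp1 in mononuclear phagocytes, not called at −1.14, was called with DESeq2 (−1.15), every gene (−1.16), the members among the variable genes (−1.14), resolution 0.5 (−1.16), no doublet removal (−1.17), no low-UMI cluster (−1.15) and in 3 of the 4 leave-one-out fits (−1.40 to −0.93). Vcan there was called with every gene (−0.41) and without doublet removal (−0.51). Fn1, Thbs1 and Ecm1 kept their calls there in all 13 alternatives. Uncalled values near 0 changed sign: Tgfbi in phagocytes (0.057 without vehicle 2, 0.0078 without AT38 1, range −0.23 to 0.057); Spp1 in monocyte-like cells (−0.15 without AT38 2, −0.21 without doublet removal, up to 0.79) and neutrophils (0.057 without AT38 2, down to −0.35); Ecm1 (0.0031 without vehicle 1, down to −1.04) and Tgfbi (0.061 without AT38 2, down to −0.63) in dendritic cells. In epithelial cells so did Spp1 (−0.015 with the block, −0.64 without AT38 2, up to 0.64), Tgfbi (−0.015 without vehicle 1, −0.038 without AT38 1, −0.11 without doublet removal, up to 0.39), Ecm1 (0.10 without vehicle 1, 0.20 without AT38 1, down to −0.80) and Vcan (0.22 without vehicle 2, 0.097 without AT38 1, down to −0.63). Resolution 0.5 gave no separate monocyte, epithelial or fibroblast class. A C1q minimum of 3 UMIs moved 13 of 48 state values by more than their SD.

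The labels do not say that equal replicate numbers share a day or batch. Correlations of deviations within numbers ran from −0.130 in monocyte-like cells to 0.246 in T, NK and innate lymphoid cells over 8 classes (0.154 in mononuclear phagocytes, 0.158 in macrophage-like and 0.141 in dendritic cells), with only 2 pairs. The crossed pairing, added after the data were seen, called 139 genes in monocyte-like cells. The block reversed 1 sign, given above.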
